A study of Mus musculus with 16 samples.

Results

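The 40 genes described here encode the machinery that copies DNA in S phase, together with the regulators that bring cells into it, and all of them were found by their Ensembl identifiers among the 52636 genes of the table. Each of the 40 passed the filter on low counts and was among the 18587 genes tested. They were described in pancreatic islets, the clusters of endocrine cells that hold the insulin-secreting beta cells, after 10 days of culture in 4 conditions with 4 libraries each. The conditions were no addition (control), IL-1β at 50 pg/mL, butyrate at 0.2 mM, and both agents together. IL-1β is an inflammatory cytokine known to impair beta cells. Butyrate, a fatty acid released by bacteria of the gut, is known to inhibit histone deacetylases. All groups shared islets of male mice aged 12 weeks, in medium with 2% human serum that was renewed on day 5. The labels name the strain C57BL/6JRj and the methods of the study C57BL/6NRj. The 500 islets behind a library came from more than 1 mouse, and a replicate therefore stands for an experiment rather than an animal.

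Replication starts at origins. There, Cdc6 and Cdt1 load the ring of Mcm2 to Mcm7 in G1, and Cdc45, the GINS proteins and Mcm10 turn the ring into a running helicase in S phase. Polymerases, the sliding clamp Pcna and its loaders then copy the strands, while ribonucleotide reductase and thymidine enzymes supply the building blocks. Many of these genes are transcribed as cells pass from G1 into S phase, under factors of the E2F family. Most endocrine cells of an adult islet are outside the cell cycle, and which cells of these islets held such transcripts was not measured. In bulk RNA, fewer cells of a type and less RNA per cell cannot be told apart.

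The start sites of the members at both ends of the butyrate response are shown because E2F-type sequences are the best known shared feature of such promoters. RefSeq windows of 300 bases, from 250 before to 50 after the start (build GRCm38.p6), were at hand for 33 of the 40 members. They are printed 5′ to 3′ on the strand of the gene, with E2F-type words (TTTCCCGC, TTTCGCGC, TTTGCCGC or TTTGGCGC on either strand) in capitals, for the 3 members that fell most with butyrate and for 2 of the 3 members that changed least. The third of these, Gins1, was not in the table. The windows are at chr7:92874198-92874497, minus strand for Ddias, at chr11:98907901-98908200, plus strand for Cdc6, at chr8:75109259-75109558, plus strand for Mcm5, at chr10:128014965-128015264, plus strand for Prim1 and at chr5:117388974-117389273, minus strand for Rfc5.
Ddias: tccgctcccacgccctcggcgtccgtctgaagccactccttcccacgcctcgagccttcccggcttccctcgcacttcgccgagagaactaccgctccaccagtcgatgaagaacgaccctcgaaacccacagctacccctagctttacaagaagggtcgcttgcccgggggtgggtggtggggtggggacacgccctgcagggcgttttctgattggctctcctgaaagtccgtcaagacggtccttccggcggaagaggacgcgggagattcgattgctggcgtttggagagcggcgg
Cdc6: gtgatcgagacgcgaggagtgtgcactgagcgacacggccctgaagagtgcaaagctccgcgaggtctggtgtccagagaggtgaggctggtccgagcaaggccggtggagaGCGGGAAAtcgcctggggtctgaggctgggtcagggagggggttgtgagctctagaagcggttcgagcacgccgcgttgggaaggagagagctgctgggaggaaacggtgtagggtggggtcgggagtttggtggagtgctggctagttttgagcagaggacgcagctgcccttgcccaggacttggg
Mcm5: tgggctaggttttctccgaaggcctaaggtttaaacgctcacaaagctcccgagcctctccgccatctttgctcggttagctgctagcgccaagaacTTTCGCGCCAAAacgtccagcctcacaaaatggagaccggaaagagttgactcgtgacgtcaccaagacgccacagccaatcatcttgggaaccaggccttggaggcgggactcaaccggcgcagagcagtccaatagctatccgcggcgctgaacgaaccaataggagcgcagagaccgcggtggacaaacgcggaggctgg
Prim1: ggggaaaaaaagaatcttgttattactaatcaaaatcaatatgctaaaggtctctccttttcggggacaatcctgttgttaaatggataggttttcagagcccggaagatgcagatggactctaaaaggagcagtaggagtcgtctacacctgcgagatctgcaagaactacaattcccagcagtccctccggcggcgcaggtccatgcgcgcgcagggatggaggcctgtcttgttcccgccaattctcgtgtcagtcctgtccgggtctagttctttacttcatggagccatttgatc
Rfc5: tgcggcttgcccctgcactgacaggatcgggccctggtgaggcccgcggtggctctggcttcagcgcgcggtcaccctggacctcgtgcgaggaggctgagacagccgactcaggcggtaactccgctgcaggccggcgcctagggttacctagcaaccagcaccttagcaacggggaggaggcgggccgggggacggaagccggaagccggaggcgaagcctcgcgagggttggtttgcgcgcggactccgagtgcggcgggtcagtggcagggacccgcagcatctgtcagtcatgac
Among these 5 windows, Mcm5 held 2 overlapping matches and Cdc6 held 1, while Ddias, Prim1 and Rfc5 held none.

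Over all 33 members with a window, 12 (36.4%) held an E2F-type word, against 2.6% of the 27025 genes of the promoter table. These were Cdc6, Cdt1, Clspn, Lig1, Mcm3, Mcm5, Mcm6, Mcm7, Pola1, Pold1, Rfc3 and Uhrf1. Of the 12 members with a window that butyrate lowered at least 2-fold, 7 held the word, and 5 of the 21 others did. A CCAAT box (CCAAT, either strand) was in 20 of the 33 (60.6%, against 41.1% of all genes), a GC box (GGGCGG, either strand) in 22 (66.7%, against 38.2%) and the cell cycle word TTTGAA on either strand in 4 (12.1%, against 20.2%). A match describes these letters in this window and is not a measured binding site.

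The libraries held 18635943 to 25955943 counts, and levels are given as CPM, the reads of a gene scaled to the size of its library, with TMM factors. Changes are log2 fold changes from edgeR's quasi-likelihood test with its standard error (SE), and genes with an adjusted p under 0.01 (Benjamini-Hochberg, over all genes tested) are said to be called. Markers of the endocrine cells of an islet were present in all libraries, with 136869 to 261225 CPM summed over 8 beta cell genes. T cell markers summed to at most 3.75 CPM and Schwann cell markers to at most 15.5 CPM. Acinar markers summed to at most 12.2 CPM, endothelial markers to at most 20.1 CPM and fibroblast and stellate markers to at most 24.1 CPM, while duct markers summed to 306 to 440 CPM, of which Krt7 alone made up 301 to 431 CPM and Krt19, Sox9, Muc1 and Cftr at most 3.93 CPM each.

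Butyrate alone lowered most of the replication machinery. Of the 40 members, 33 fell and 0 rose (edgeR, adjusted p under 0.01), where 11.4% of all tested genes fell and 8.53% rose. At an unadjusted p under 0.05, 1 member rose, Ung, and DESeq2 called 1 member as raised, also Ung. The median log2 fold change of the members was -0.84, against 0.01 over all genes, and 15 members fell at least 2-fold. IL-1β alone lowered 15 members and raised 0 (0 also at an unadjusted p under 0.05 and with DESeq2), with a median of -0.32 against -0.03 over all genes, where 6.59% of all genes fell and 11.2% rose. Both agents together, against control, lowered 34 and raised 1 (14.8% and 15.8% of all genes), with a median of -0.79 against 0.00 over all genes.

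**Figure D1:**
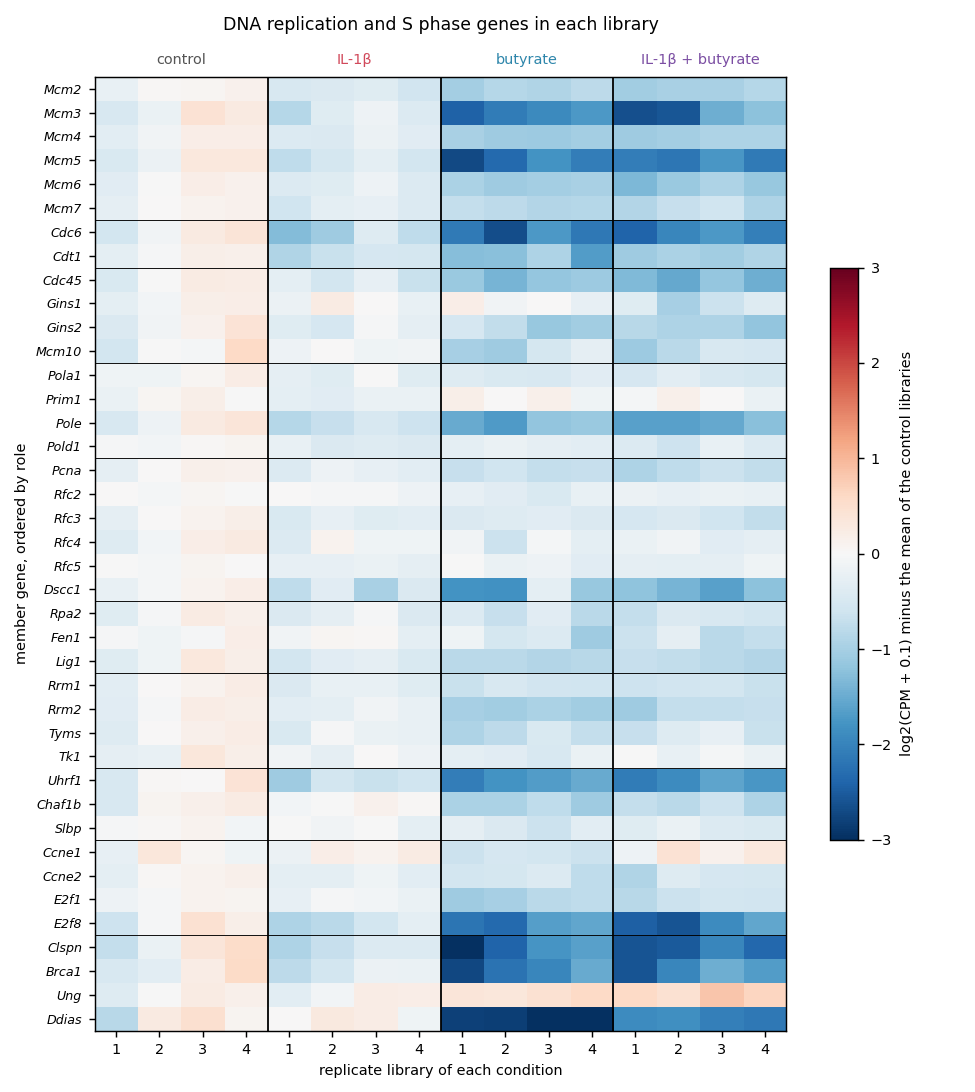
Level of the 40 members (rows, ordered by role and separated by lines) in the 16 libraries (columns), as log2(CPM + 0.1) minus the mean of the 4 control libraries, with values below -3 drawn at -3. The 8 libraries with butyrate are blue in most rows, Ung is the row that is red in them, and control replicate 1 is pale blue in most rows.

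The 8 deepest falls with butyrate were those of Ddias, Cdc6, Mcm5, Clspn, Brca1, Mcm3, E2f8 and Uhrf1, genes of several roles. Ddias, also known as a factor that protects cells from apoptosis after DNA damage, stood at 2.05, 4.54, 5.30 and 3.94 CPM in the control libraries, 3.77, 4.63, 4.35 and 3.43 CPM with IL-1β, 0.452, 0.444, 0.366 and 0.344 CPM with butyrate and 0.934, 0.976, 0.832 and 0.770 CPM with both agents. The butyrate libraries were all below every control and IL-1β library, and the libraries with both agents lay between them. Its log2 fold change with butyrate was -3.29 ± 0.27 (SE), adjusted p = 5.39e-10, or 9.76-fold lower, on 7 to 10 reads in each butyrate library. With IL-1β it was 0.02 ± 0.18 (SE), adjusted p = 0.948, and the control and IL-1β libraries overlapped.

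Cdc6, which loads the MCM ring at origins, stood at 3.17, 4.38, 5.73 and 6.21 CPM in the control libraries, 1.86, 2.19, 3.58 and 2.74 CPM with IL-1β, 1.00, 0.666, 1.36 and 0.989 CPM with butyrate and 0.812, 1.15, 1.36 and 1.06 CPM with both agents. Its butyrate libraries were apart from the control libraries, and its IL-1β libraries reached into the control range. The change was -2.29 ± 0.24 (SE), adjusted p = 7.27e-08 with butyrate and -0.91 ± 0.20 (SE), adjusted p = 0.00139 with IL-1β. Cdt1, its partner in licensing, gave -1.32 ± 0.15 (SE), adjusted p = 1.09e-07 with butyrate and -0.66 ± 0.14 (SE), adjusted p = 0.000496 with IL-1β. Its IL-1β libraries (3.05, 3.60, 4.04 and 3.93 CPM) were all below its control libraries (4.67, 5.63, 6.50 and 6.42 CPM) and above its butyrate libraries (2.31, 2.35, 2.98 and 1.72 CPM).

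All 6 subunits of the MCM helicase fell with butyrate. With IL-1β all 6 had negative values and 4 were called. Mcm5 stood at 8.82, 10.7, 15.2 and 15.1 CPM in the control libraries, 7.08, 8.33, 9.85 and 8.30 CPM with IL-1β, 1.76, 2.31, 3.45 and 2.80 CPM with butyrate and 2.80, 2.63, 3.55 and 2.70 CPM with both agents. The libraries with butyrate did not reach the range of those without it, in the absence or presence of IL-1β. Mcm5 changed by -2.27 ± 0.20 (SE), adjusted p = 1.13e-07 with butyrate, and the value with IL-1β was -0.57 ± 0.17 (SE), adjusted p = 0.0157. Mcm3 followed with -2.10 ± 0.31 (SE), adjusted p = 0.000135 with butyrate and -0.47 ± 0.26 (SE), adjusted p = 0.219 with IL-1β. The other 4 subunits fell less with butyrate, between -1.06 for Mcm4 and -0.83 for Mcm7. These 4 were the ones called with IL-1β, between -0.47 for Mcm2 and -0.35 for Mcm6. The values of Mcm5 and Mcm3 with IL-1β were no smaller, and a replicate block called both. Of 24 alternatives, Mcm4 lost its call with IL-1β in 7 and Mcm6 in 11. Mcm2 stood at 24.2, 29.0, 29.7 and 31.2 CPM in the control libraries, 20.4, 20.9, 22.1 and 19.2 CPM with IL-1β, 14, 15.5, 15.2 and 16.5 CPM with butyrate and 13.7, 14.4, 14.4 and 15.7 CPM with both agents. Its control, IL-1β and butyrate libraries formed 3 ranges without overlap, and the change with IL-1β was -0.47 ± 0.07 (SE), adjusted p = 8.61e-06. With butyrate the 6 subunits thus spread over a wider range than with IL-1β, where they lay between -0.57 and -0.35.

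Among the activators of the helicase, Cdc45 fell with each agent, by 1.24 ± 0.14 with butyrate and by 0.47 ± 0.13 with IL-1β on the log2 scale (adjusted p = 1.8e-07 and 0.00766). Its call with IL-1β was lost in 12 of 24 alternatives. Gins2 and Mcm10 fell with butyrate only by call, at -0.91 and -0.76. Gins1 had a value of -0.04 ± 0.21 (SE), adjusted p = 0.913 with butyrate, on 22 to 35 reads in each control library, and its butyrate libraries (1.51, 1.20, 1.31 and 1.08 CPM) overlapped with its control libraries (1.03, 1.21, 1.48 and 1.50 CPM). Exons of Gse1, on the other strand, cover 67.3% of the exonic bases of Gins2, and without strand their reads cannot be told apart.

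The polymerases did not move as 1 block. Pole, the catalytic subunit of the leading-strand polymerase, fell by 1.42 ± 0.17 with butyrate and by 0.70 ± 0.16 with IL-1β on the log2 scale (adjusted p = 1.03e-06 and 0.00145). Pold1, the catalytic subunit of the lagging-strand polymerase, fell by 0.27 ± 0.08 with butyrate and by 0.37 ± 0.08 with IL-1β. Pola1, of the polymerase that extends primers, fell with butyrate at -0.43 and was at -0.26 (adjusted p = 0.031) with IL-1β. Prim1, the primase subunit that lays down the RNA primer, was at 0.05 ± 0.09 (SE), adjusted p = 0.722 with butyrate, with a 95% interval of -0.13 to 0.23.

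Pcna, the clamp that holds polymerases on DNA, had the highest level per exonic length of all 40 members in each condition, at 14.8 CPM per kilobase in control. It stood at 29.0, 35.7, 38.9 and 38.2 CPM in the control libraries, 26.6, 31.7, 29.9 and 28.1 CPM with IL-1β, 21.7, 23.4, 21.4 and 21.8 CPM with butyrate and 18.6, 20.9, 22.6 and 21.1 CPM with both agents. Its butyrate libraries were all below its control libraries, and its IL-1β libraries overlapped with them. The change was -0.68 ± 0.08 with butyrate and -0.29 ± 0.08 with IL-1β (adjusted p = 2.58e-07 and 0.0055). Its copies Pcna-ps1 and Pcna-ps2, which may share reads with it, had at most 10 reads in a library. With butyrate the clamp loader subunits changed less than Pcna. Rfc2 (-0.31) and Rfc3 (-0.41) fell with butyrate, while Rfc4 (-0.30) and Rfc5 (-0.17) were not called. Rfc5 was the single member that fell with IL-1β (-0.25) without being called with butyrate. This call of Rfc5 with IL-1β was lost in 13 of 24 alternatives. Dscc1, of the alternative loader for cohesion, fell by 1.25 ± 0.27 with butyrate.

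Lig1, the ligase that seals lagging-strand fragments, fell with butyrate (-0.86) and with IL-1β (-0.43 ± 0.10, adjusted p = 0.00249), and Rpa2, of the complex that coats single strands, fell with butyrate (-0.59). Fen1, the nuclease that trims flaps, was at -0.53 (adjusted p = 0.031) with butyrate. Exons of Gm10143 on the other strand cover 78.8% of its exonic bases. Of the nucleotide enzymes, both subunits of ribonucleotide reductase fell with butyrate, Rrm2 by 1.04 ± 0.11 and Rrm1 by 0.59 ± 0.08 on the log2 scale, as did thymidylate synthase, Tyms (-0.74). IL-1β lowered Rrm1 (-0.33). Thymidine kinase, Tk1, was at -0.34 (adjusted p = 0.025) with butyrate and at -0.16 with IL-1β.

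The 3 members that copy chromatin along with DNA all fell with butyrate. Uhrf1, which brings DNA methylation to new strands, stood at 4.43, 6.42, 6.31 and 8.30 CPM in the control libraries, 2.90, 4.24, 3.89 and 4.04 CPM with IL-1β, 1.41, 1.73, 1.88 and 2.11 CPM with butyrate and 1.38, 1.61, 2.01 and 1.78 CPM with both agents. Control, IL-1β and butyrate libraries did not overlap with one another. Uhrf1 changed by -1.83 ± 0.18 (SE), adjusted p = 1.04e-08 with butyrate and by -0.75 ± 0.16 (SE), adjusted p = 0.00056 with IL-1β. Chaf1b, of the histone chaperone of the fork, fell with butyrate by 0.99 ± 0.15 and was at -0.01 with IL-1β, and Slbp, which binds histone mRNA, fell with butyrate by 0.40 ± 0.08.

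Regulators of entry into S phase fell with butyrate, 4 of 4, and none was called with IL-1β. E2f1, an activator of this gene set, stood at 24.1, 26.3, 29.0 and 28.7 CPM in control and at 12.8, 13.4, 15.3 and 15.8 CPM with butyrate, without overlap, a change of -0.91 ± 0.08 (SE), adjusted p = 1.12e-09. E2f8, a repressor of the same family, changed by -2.06 ± 0.26 (SE), adjusted p = 8.98e-07. The E cyclins, which activate Cdk2, fell less, Ccne1 by 0.62 ± 0.15 and Ccne2 by 0.58 ± 0.11. With IL-1β, E2f8 was at -0.69 (adjusted p = 0.0217) and Ccne1 at 0.09 (adjusted p = 0.694).

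Claspin, Clspn, which relays fork stalling to the checkpoint kinase, stood at 3.22, 4.71, 6.98 and 7.88 CPM in the control libraries, 2.79, 3.31, 3.99 and 4.01 CPM with IL-1β, 0.552, 0.933, 1.52 and 1.68 CPM with butyrate and 0.812, 0.849, 1.31 and 0.963 CPM with both agents. The libraries with butyrate were all below those without. Clspn changed by -2.27 ± 0.30 (SE), adjusted p = 1.38e-05 with butyrate, and Brca1, a repair factor at forks, by -2.15 ± 0.30 (SE), adjusted p = 4.98e-05. With IL-1β the values were -0.68 (adjusted p = 0.0529) and -0.47 (adjusted p = 0.197).

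Ung, the glycosylase that removes uracil from DNA, went the other way. It stood at 4.48, 5.80, 6.98 and 6.59 CPM in the control libraries, 4.70, 5.55, 6.89 and 6.78 CPM with IL-1β, 7.63, 7.51, 8.05 and 8.95 CPM with butyrate and 8.93, 8.11, 10.5 and 9.20 CPM with both agents. All libraries with butyrate were above all libraries without it. With butyrate alone the value was 0.43 ± 0.13 (SE), adjusted p = 0.0104, just outside the threshold, and in the presence of IL-1β butyrate raised it by 0.61 ± 0.12 (SE), adjusted p = 0.000451. Against control, both agents together raised Ung by 0.62 ± 0.12 (SE), adjusted p = 0.00018.

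**Figure D2:**
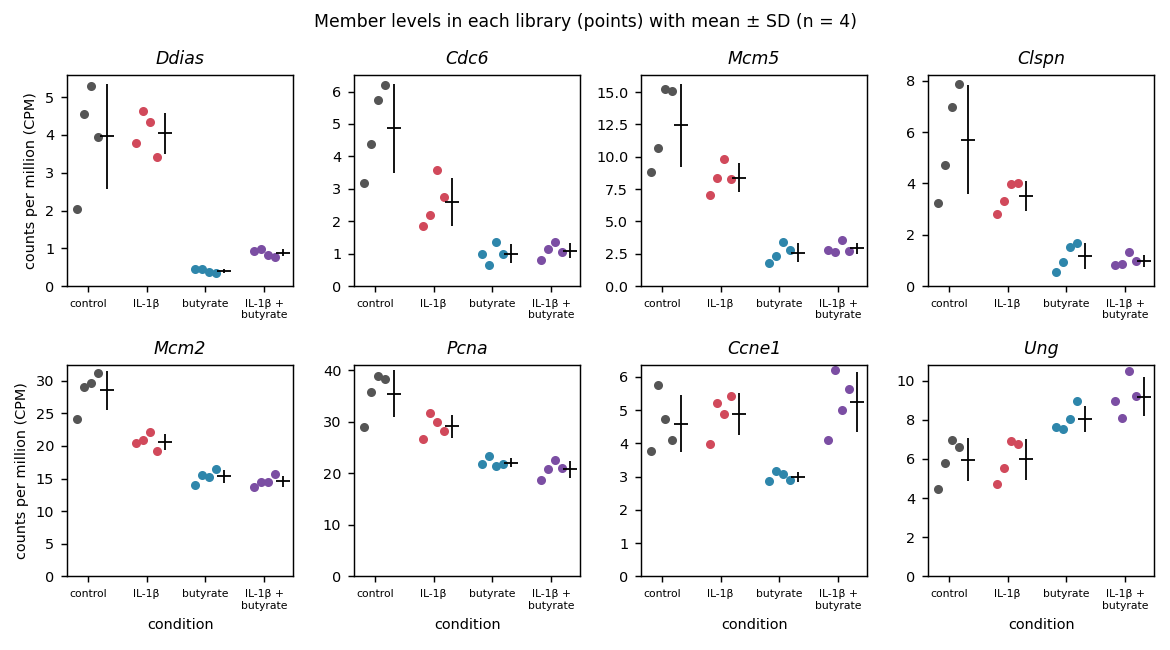
CPM in each library (points) of 8 members by condition, with the mean and SD of 4 libraries beside them, on axes that start at 0. Ddias, Cdc6, Mcm5, Clspn, Mcm2 and Pcna are lower in the libraries with butyrate, Ccne1 is lower with butyrate alone, and Ung is higher with butyrate.

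**Figure D3:**
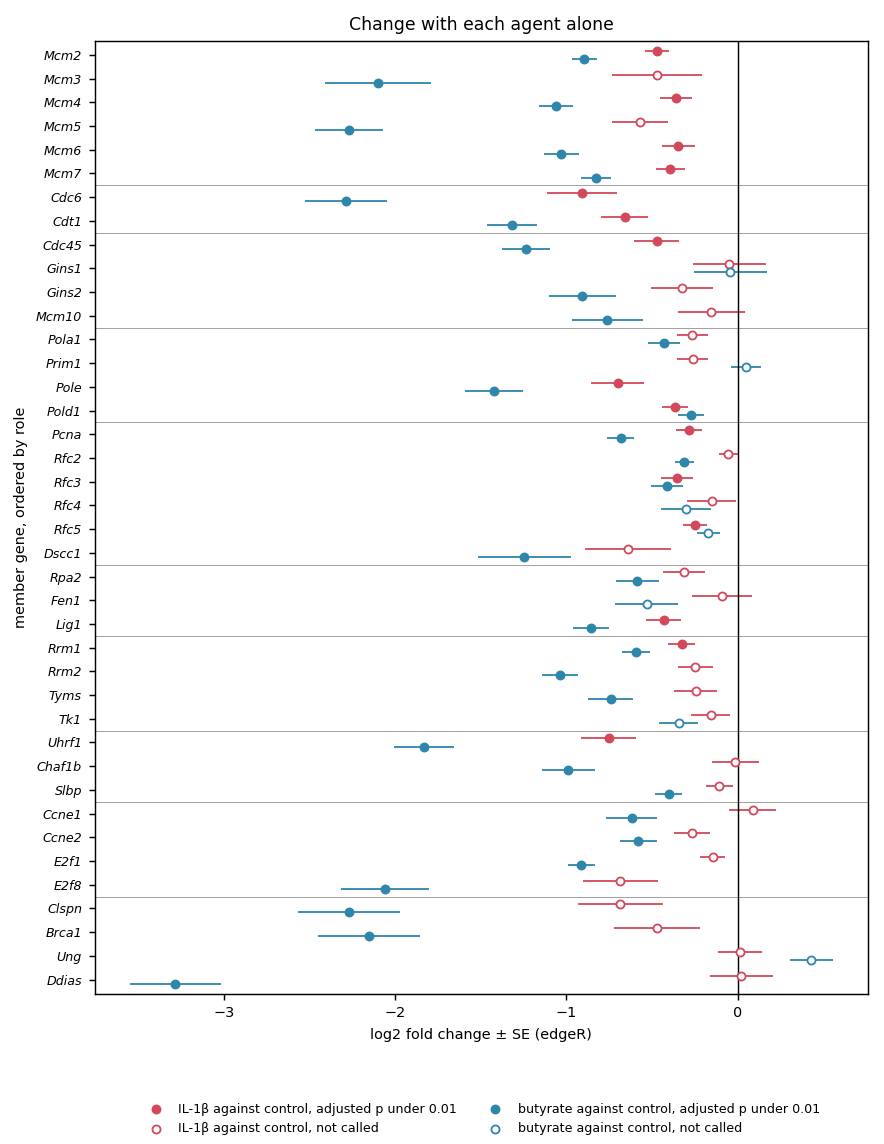
Log2 fold change with its SE of each member with IL-1β (red) and with butyrate (blue) against the same 4 control libraries, with filled points for an adjusted p under 0.01. Butyrate points reach -3.29 (Ddias) and 33 are filled, while IL-1β points stay between -0.91 (Cdc6) and 0.09 (Ccne1) and 15 are filled.

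Set side by side, 14 members fell with each agent, 19 fell with butyrate and were not called with IL-1β, 1 (Rfc5) fell with IL-1β and was not called with butyrate, and 6 were called with neither, namely Gins1, Prim1, Rfc4, Fen1, Tk1 and Ung. These calls come from the fit without a replicate block, and both comparisons use the same control libraries. Over all genes, 6.59% fell with IL-1β and 11.4% with butyrate. The share of all genes in each group above is not given here. In butyrate compared directly with IL-1β, where the control libraries enter only the spread estimated by the common fit, 24 members were lower with butyrate and 2 higher (19.1% and 13.3% of all genes), with a median of -0.54 against 0.03 over all genes. In the same comparison 9 of 10 macrophage markers were lower with butyrate (median -2.51), 7 of 8 beta cell markers were higher (median 0.70), and the part of these differences in the members' values was not tested. The gap was widest for Ddias (-3.31 ± 0.27 (SE), adjusted p = 8.75e-11), followed by Mcm5 (-1.70 ± 0.21), Brca1 (-1.68 ± 0.31), Mcm3 (-1.63 ± 0.32), Clspn (-1.59 ± 0.31), Cdc6 (-1.38 ± 0.26), E2f8 (-1.37 ± 0.27) and Uhrf1 (-1.08 ± 0.19), with adjusted p-values up to 0.000876. Of the 14 members lowered by each agent, 11 were lower with butyrate than with IL-1β. The 2 that were higher were Ung (0.42 ± 0.13 (SE), adjusted p = 0.00888) and Prim1 (0.31 ± 0.09 (SE), adjusted p = 0.00547). Leaving out 1 library moved this count of 2 to between 0 and 2, with 0 without IL-1β replicate 1 or 2 or without butyrate replicate 1, 2 or 3, and 1 without IL-1β replicate 3, butyrate replicate 4, control replicate 2 or any library with both agents.

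The count of members lowered by IL-1β leaned on single libraries. It was 7 without control replicate 3, 7 without control replicate 4, 8 without IL-1β replicate 1 and 7 without IL-1β replicate 4, and it rose to 20 without control replicate 1. With a replicate block all 15 kept the call and 6 more gained it (Mcm3, Mcm5, Rpa2, E2f8, Clspn and Brca1). Control replicate 1 had the lowest mean of the members among the control libraries, -0.34 on the log2 scale against their overall mean, where the other control libraries lay between -0.04 and 0.20 and the IL-1β libraries between -0.45 and -0.20. Mcm2, Mcm7, Cdc6, Cdt1, Pole, Pold1 and Uhrf1 kept the call in all 24 alternatives tried for this comparison, and Mcm4, Mcm6, Cdc45, Pcna, Rfc3, Rfc5, Lig1 and Rrm1 lost it in at least 6 of them. IL-1β also raised 9 of 10 macrophage markers, whose sum went from 128 to 142 CPM in control to 174 to 212 CPM. Without C1qa, the highest of them in control, which fell, the sum went from 17.2 to 28.4 CPM in control to 82.5 to 144 CPM. IL-1β lowered 7 of 8 beta cell markers. Their part in the members' change with IL-1β was not tested.

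With butyrate, the count of lowered members stayed between 31 and 33 whichever library was left out. Markers of other cells moved here too. All 10 macrophage markers had negative values (median -0.36), of which C1qa was called, and their sum was 85.1 to 106 CPM, below the control range. Without C1qa the sum was 13.8 to 23.5 CPM and overlapped with control. Of 8 beta cell markers 2 rose and 1 fell (Ucn3, -0.28), of 4 alpha cell markers 2 fell (Ttr, -0.84, and Irx2, -0.46), the delta cell marker Sst rose (0.55) and 1 of 9 fibroblast and stellate markers rose (Pdgfra, 1.81). Their part in the members' change with butyrate was not tested. The count of raised members was 1 (Ung) without control replicate 3 and without IL-1β replicate 1.

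The question whether either agent acted on the members in the presence of the other was read from the remaining comparisons. The agents were given over the same 10 days. Among islets with IL-1β, butyrate lowered 20 members and raised 1 (11.1% and 8.41% of all genes), with a median of -0.51 against 0.01. All 10 macrophage markers had negative values in this comparison and 4 were called lower (Cd68, Adgre1, C1qa and C1qb). Their sums were 96.6 to 128 CPM with both agents against 174 to 212 CPM with IL-1β. Without C1qa the sums were 38.4 to 82.5 CPM against 82.5 to 144 CPM, and these ranges touched. Endocrine markers moved in both directions. With both agents, mean CPM was lower than with IL-1β for Ins1 (32450 against 42914), Mafa (130 against 222) and Ttr (415 against 683). The mean of Sst was higher (2640 against 1735 CPM), and that of Ins2 was 88445 against 88046 CPM. The part of all these markers was not tested. The falls of the members were led by Ddias (-2.18 ± 0.23 (SE), adjusted p = 3.79e-08), Clspn (-1.85 ± 0.32), E2f8 (-1.59 ± 0.28), Brca1 (-1.53 ± 0.30), Mcm5 (-1.52 ± 0.20), Mcm3 (-1.48 ± 0.31), Cdc6 (-1.25 ± 0.25) and Uhrf1 (-1.16 ± 0.19), with adjusted p-values up to 0.00251. All 20 had also fallen with butyrate alone. Over all genes 11.4% fell with butyrate alone, and the share among the genes lowered beside IL-1β is not given here. The means compared come from other libraries in each case, while the spread comes from 1 fit to all of them. The 13 members called without IL-1β only included Cdt1 (-0.37, adjusted p = 0.0646), Pold1 (-0.05, adjusted p = 0.673) and Ccne1 (0.09, adjusted p = 0.654).

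Among islets with butyrate, IL-1β lowered 0 members and raised 1 (4.86% and 9.92% of all genes), with a median of 0.01 against -0.01. At an unadjusted p under 0.05, 1 was lower (Gins1) and 3 were higher, and DESeq2 called 0 as lowered and 2 as raised. The member that rose was Ccne1, cyclin E1, which stood at 3.78, 5.75, 4.73 and 4.11 CPM in the control libraries, 3.98, 5.21, 4.87 and 5.41 CPM with IL-1β, 2.86, 3.15, 3.08 and 2.88 CPM with butyrate and 4.10, 6.20, 4.99 and 5.63 CPM with both agents. Its butyrate libraries were below all others, and the libraries with both agents overlapped with those of control. The rise was 0.80 ± 0.15 (SE), adjusted p = 0.000129. Ddias was higher with both agents than with butyrate in every library, at 1.13 ± 0.34 (adjusted p = 0.0151), and DESeq2 called it. It was also called, making the count 2, without control replicate 1 and without control replicate 3, and E2f1 (0.26, adjusted p = 0.0219) was called without the library of both agents numbered 1. Gins1 was lower in each library with both agents (0.975, 0.594, 0.788 and 0.963 CPM) than in each with butyrate, at -0.61 ± 0.23 (adjusted p = 0.0568). The members that IL-1β alone had lowered most were at 0.13 ± 0.29 for Cdc6, -0.08 ± 0.21 for Uhrf1 and -0.15 ± 0.19 for Pole, none past the threshold. Their 95% intervals were -0.47 to 0.74, -0.51 to 0.35 and -0.55 to 0.25.

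**Figure D4:**
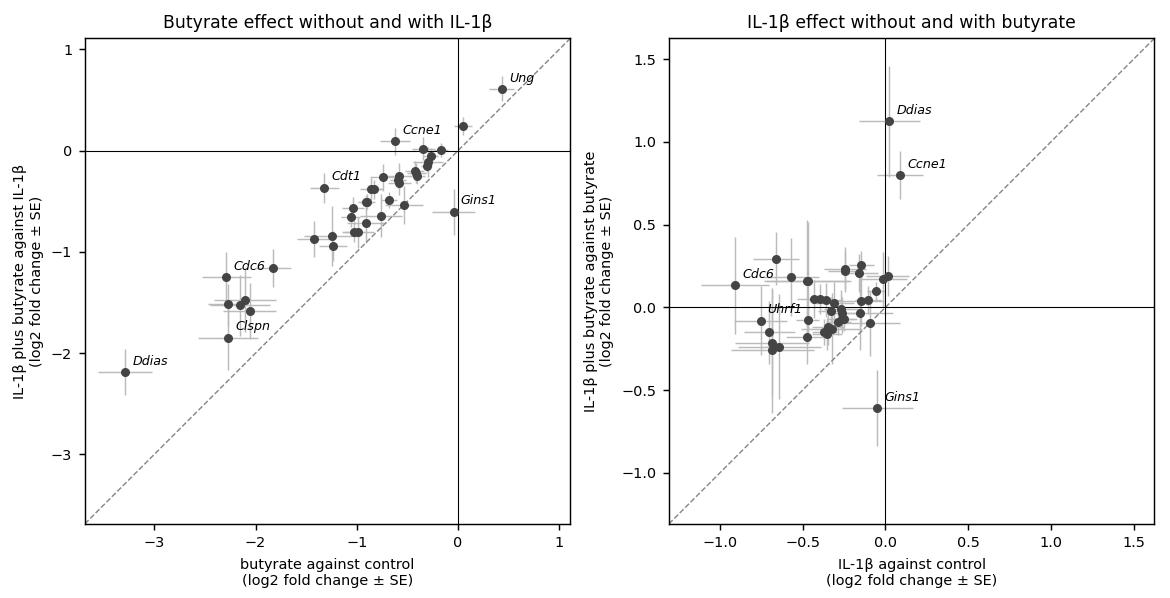
Log2 fold change with its SE of the 40 members for butyrate without IL-1β (x axis) and with it (y axis), and for IL-1β without butyrate (x axis) and with it (y axis), with a dashed line where both are equal; the means behind the axes of a panel come from different libraries, in 1 fit. In the butyrate panel 36 of 40 members changed less with IL-1β present, a count with no share over all genes beside it. In the IL-1β panel most points lie near 0 on the y axis, with Ddias and Ccne1 above it and Gins1 below.

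Whether the effect of butyrate differed between islets with IL-1β and islets without it was tested as an interaction. No member was called in either direction (0 of 40, edgeR, where 0.0538% of all genes were called lower and 0.043% higher), although at an unadjusted p under 0.05 the difference was positive for 16 members and negative for 0 (3.78% and 3.55% of all genes), and DESeq2 called 0. With a replicate block, 3 members were called, all with a positive value (Mcm5, Cdt1 and E2f1). A positive value stands for a less negative or more positive change with butyrate when IL-1β was present. For Ung and Prim1, with positive values in both settings, it stands for a larger positive value. It was positive for 38 of 40 members, with a median of 0.35 against 0.01 over all genes, and all 40 values share the same 16 libraries. The lowest adjusted p was that of Cdt1, at 0.95 ± 0.21 (SE), adjusted p = 0.052. Ddias (1.10 ± 0.38, adjusted p = 0.392) and Cdc6 (1.04 ± 0.36, adjusted p = 0.384) had values of similar size, and Gins1 (-0.56 ± 0.31) had the opposite sign.

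Against control, the members lowest with both agents were Clspn (-2.53 ± 0.30 (SE), adjusted p = 2.17e-06), E2f8 (-2.27 ± 0.26), Ddias (-2.16 ± 0.23), Cdc6 (-2.15 ± 0.23), Mcm5 (-2.09 ± 0.19), Brca1 (-2.00 ± 0.29), Mcm3 (-1.95 ± 0.30) and Uhrf1 (-1.91 ± 0.18), with adjusted p-values up to 0.000109. Fen1 (-0.63) and Rfc5 (-0.24), which were not called with butyrate alone, fell here, and Ccne1 (0.18, adjusted p = 0.325) was not called.

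Other genes of replication were read from a list of 77 that excluded the members. Butyrate lowered 43 of the 77 and raised 0 (edgeR, with 1 at an unadjusted p under 0.05 and 0 with DESeq2), with a median of -0.32. IL-1β lowered 14 and raised 2, with a median of -0.14. Over all genes, 11.4% fell and 8.53% rose with butyrate (median 0.01). With IL-1β 6.59% of all genes fell and 11.2% rose (median -0.03). Orc6, of the complex that marks origins, fell with butyrate by 1.62 ± 0.10 and the fork proteins Chtf18 and Timeless by 1.46 ± 0.18 and 1.16 ± 0.19. Of the 10 chromatin genes of the list, 7 fell with butyrate and 3 were not called. Among those that fell, Asf1b and Chaf1a, both histone chaperone genes, changed by -2.12 ± 0.21 and -2.00 ± 0.20. Hells fell by 1.48 ± 0.19 and Atad2 by 1.06 ± 0.13. In fork repair, Brip1 fell by 2.23 ± 0.23 and Fancd2 by 1.53 ± 0.17. One gene of the list stood out in the other direction with IL-1β. Dctd, the deaminase that makes the precursor of thymidylate from dCMP, stood at 1.17, 1.25, 0.573 and 1.03 CPM in control, 10.6, 11.1, 10.3 and 10.4 CPM with IL-1β, 0.904, 0.977, 0.836 and 1.38 CPM with butyrate and 7.23, 6.49, 5.78 and 5.92 CPM with both agents. It rose by 3.38 ± 0.15 (SE), adjusted p = 5e-16 with IL-1β, and butyrate lowered it in the presence of IL-1β by 0.74 ± 0.11 on the log2 scale (adjusted p = 1.29e-05).

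Genes of G2 and mitosis, which follow S phase, fell with butyrate in 14 of 14 cases, with a median of -2.35, where 11.4% of all genes fell. With IL-1β all 14 had negative values, with a median of -0.54, of which 1 (Ccna2, -0.60) was called, where 6.59% of all genes fell. Mki67, the proliferation marker, stood at 24.1, 38.7, 59.2 and 54.9 CPM in control, 16.7, 26.6, 36.2 and 26.1 CPM with IL-1β, 2.26, 3.33, 7.11 and 5.85 CPM with butyrate and 2.56, 3.82, 7.36 and 6.16 CPM with both agents. No library with butyrate reached any library without it. Its change was -3.26 ± 0.41 (SE), adjusted p = 5.55e-05 with butyrate and -0.75 ± 0.33 (SE), adjusted p = 0.121 with IL-1β. Top2a, the topoisomerase of dividing cells, gave -2.64 ± 0.38 (SE), adjusted p = 0.000177 with butyrate and -0.74 ± 0.32 (SE), adjusted p = 0.119 with IL-1β, and the mitotic kinase Cdk1 gave -2.68 ± 0.37 (SE), adjusted p = 6.65e-05 and -0.53 ± 0.29 (SE), adjusted p = 0.212.

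**Figure D5:**
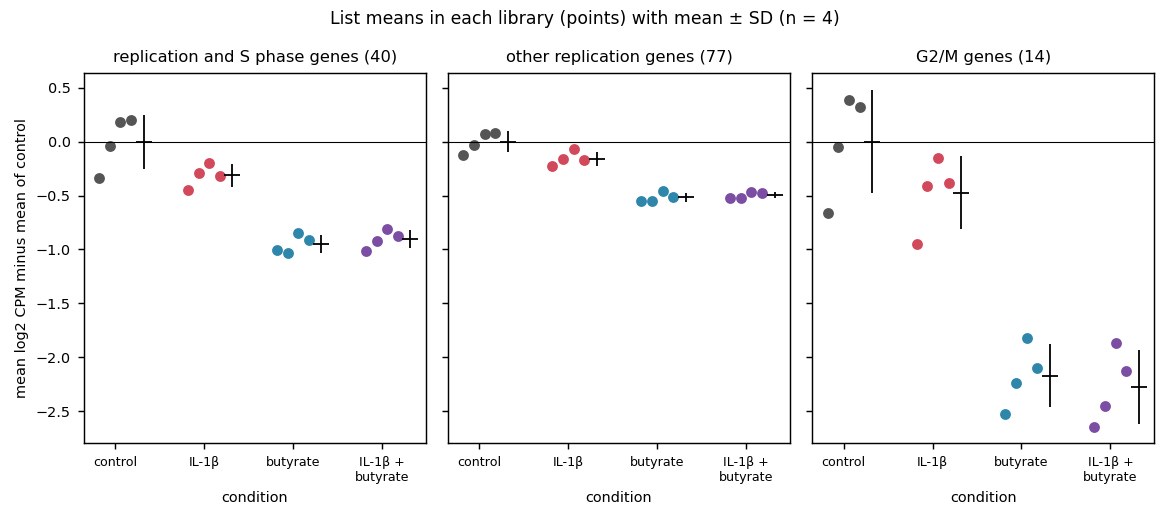
Mean over the genes of a list of log2 CPM minus its mean in the control libraries, for each library (points) with mean and SD of 4 libraries, for the 40 members, the 77 other replication genes and 14 G2/M genes. Libraries with butyrate lie between -1.03 and -0.81 for the members and between -2.64 and -1.82 for the G2/M genes, below all other libraries in each panel.

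In the family of E2F, RB and MuvB factors, which control these genes, 6 of 15 fell with butyrate, where 11.4% of all genes fell. IL-1β lowered 3 of the 15, where 6.59% of all genes fell. Those that fell with butyrate included E2f7 (-1.74 ± 0.20 (SE), adjusted p = 2.51e-07) and E2f2 (-1.04 ± 0.09 (SE), adjusted p = 2.65e-09). E2f7, a repressor like E2f8, was higher with both agents than with butyrate alone (0.89 ± 0.22 (SE), adjusted p = 0.00312). The inhibitors of cyclin-dependent kinases did not rise as a group. Cdkn1a, which encodes p21, fell with butyrate from 65.9, 68.5, 61.5 and 59.4 CPM in control to 40.6, 41.0, 35.1 and 36.3 CPM, without overlap, a change of -0.74 ± 0.08 (SE), adjusted p = 4.44e-07. Cdkn2c also fell with butyrate (-1.05 ± 0.16 (SE), adjusted p = 7.91e-05) and with IL-1β (-0.58, adjusted p = 0.00902). Cdkn1c rose with butyrate (1.15 ± 0.29 (SE), adjusted p = 0.00373) and fell with IL-1β (-1.72 ± 0.42 (SE), adjusted p = 0.00263), at levels of at most 1.67 CPM. With butyrate, Cdkn1b (0.02), Cdkn2a (0.00), Cdkn2b (0.26) and Cdkn2d (0.05) were not called, nor were they with IL-1β.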

How the data were processed

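RNA sequencing of 16 mouse islet libraries was analysed. Per the labels, the submitters' processing notes name bcl2fastq 2.19.1, FastQC 0.11.7, MultiQC 1.7, STAR 2.5.3a, DESeq2 and the builds mm10 and GRCm38.p5. The deposited values are raw counts of single-end reads per gene; annotation release, strand setting and read filters are not given in the sources used here. Of 52636 genes, 10560 had no count. Symbols, lengths and exon overlaps came from GENCODE M21 (52489 identifiers matched).

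In R 4.3.3, edgeR 4.0.16 filtered genes (filterByExpr), scaled counts by TMM and fitted 1 robust quasi-likelihood model with a mean per condition to all libraries, without a replicate block. P-values were adjusted by Benjamini-Hochberg over 18587 genes and called under 0.01. The script was tested on simulated data. DESeq2 1.42.0, other scalings, no filter, a block, fits of both conditions alone, a threshold of 0.05 and leaving out each library were alternatives. Replicates differed beyond counting error, with a chi-square per gene of 1.72 to 13.5 between libraries of a condition. Libraries of the same number had positively correlated deviations in all 24 pairs, with a correlation over 0.1 in 17 of them. All 4 pairs passed 0.1 for butyrate against IL-1β only. This pairing was read from the data and not from the labels. The reads carried no molecular identifiers.

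Full statistics were given, in each comparison, for up to 8 called members per direction with the largest change. Pathway genes were named where called with at least a 2-fold change with 1 agent, at most 4 per list. Some of the genes so chosen are not reported here. Mki67, Top2a, Cdk1 and the CDK inhibitors were named whatever their values. The members, the lists and the alternatives were chosen with earlier results of these data known. P-values measure the spread between experiments.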

Additional observations from a re-analysis of the deposited data

Results flagged for a closer look

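Each member's 4 libraries were searched in each condition for 1 value far from the other 3, and 3 of 160 groups held one. By chance about 1 in 20 groups would. Mcm6 stood at 17.1 CPM in IL-1β replicate 3, where the other IL-1β libraries had 14.1 to 14.6 CPM. Ccne2 stood at 9.23 CPM in the same library, against 8.08 to 8.22 CPM in the others. Rrm2 stood at 5.81 CPM in replicate 1 of both agents, against 7.36 to 7.56 CPM. No member's butyrate effect was called as different with and without IL-1β.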

How the results depend on the processing

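Among the 45 results of the up to 8 largest called changes per comparison and direction, no value changed its sign and 41 kept their call in all alternatives. Over all called members, 7 of 15 kept it with IL-1β, 30 of 33 with butyrate (not Ccne1, Mcm10 and Pold1), 19 of 21 with butyrate beside IL-1β (not Gins2 and Rrm1), 30 of 35 with both agents against control (not Fen1, Mcm10, Rfc2, Rfc5 and Tyms) and 20 of 26 with butyrate against IL-1β (not Lig1, Pole, Prim1, Slbp, Tyms and Ung). The median of the members moved in no comparison by more than the SD between replicates. The count lowered by IL-1β (15) was 7 with library sizes alone as scaling and 8 with only both conditions compared in the fit, and 7 to 20 when 1 library was left out. The count raised by butyrate (0) was 1 with DESeq2, upper-quartile scaling, no filter on low counts, only both conditions in the fit, and an adjusted p under 0.05, and 0 to 1 with 1 library left out; the member was Ung. The count raised by IL-1β beside butyrate (1) was 2 with DESeq2 and with only both conditions, 3 with library sizes alone, no filter and an adjusted p under 0.05, and 1 to 2 with 1 library left out, by Ddias or E2f1. The count raised by butyrate beside IL-1β (1) was 2 at an adjusted p under 0.05. The count higher with butyrate than with IL-1β (2) was 0 with DESeq2 and with library sizes alone, and 0 to 2 with 1 library left out. Members with a smaller butyrate fall beside IL-1β (0 called) were 2 without the filter, Mcm5 and Cdt1. The causes of these moves were not tested.

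Libraries of the same number deviated together in part. Of 24 same-numbered pairs, 17 had a correlation over 0.1 (range 0.0535 to 0.397), all 24 were positive, and 14 of 16 libraries correlated best with their own number, a hint that numbers may mark shared experiments. No label says so. All 4 pairs passed 0.1 for butyrate against IL-1β, where the block gave 27 lower and 2 higher members, and 2 or 3 of 4 did in the other comparisons. With a replicate block the count lowered by IL-1β was 21, the count raised by butyrate 1, the count raised by IL-1β beside butyrate 3, and the difference of the butyrate effects was called for 3 members (Mcm5, Cdt1 and E2f1). Low members such as Ddias, Gins1 and Dscc1 rest on few reads, which limits the smallest change that could be seen in them.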
